A study of Homo sapiens with 2 samples.

Results

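The mitochondrial genome and 4 nuclear stretches copied from it together held 64 of the 5981 T-to-C sites listed for HA-METTL14 in HepG2 cells. The members were chosen by position alone: every listed site on chromosome M, 31 in all, and every site whose middle base fell in a window on chromosome 1, 1 of 2 windows on chromosome 5 or a window on chromosome 11, 33 in all. These positions are themselves the readout, so the counts describe the list and were not tested. HepG2 is a human hepatocellular carcinoma line. The cells carried METTL14 cDNA with an HA tag at the N-terminus and EGFP at the C-terminus from a lentiviral vector, were selected with puromycin and were sorted for high GFP, so the protein was overexpressed in a sorted pool. Both libraries, replicates 1 and 2, came from cells that had taken up 4-thiouridine (200 µM, 16 h) before 3 rounds of 365 nm light at 0.15 J/cm2. The assay was PAR-CLIP, in which a crosslinked 4-thiouridine is read as C, so that a site is a T read as C on the RNA strand. The authors deposited 1 list for both libraries, so the spread between replicates is unknown for every value below. A library without the HA pull-down was not analysed here.

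Human mitochondrial DNA is read from both strands into long RNAs. Its genes for ribosomal RNAs, transfer RNAs and subunits of the respiratory chain and ATP synthase lie end to end, and the tRNAs between them are cut out to release the neighbouring RNAs. A CCA that the DNA does not encode is then added to the 3′ end of each tRNA. Pieces of mitochondrial DNA have also been copied into the nuclear genome, where a short read may match a copy as well as its source. METTL14 and METTL3 form the nuclear complex that writes N6-methyladenosine into RNA.

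Sites were first placed in genes. GENCODE 29 lists 37 mitochondrial genes, 2 for rRNAs, 22 for tRNAs and 13 for mRNAs. Its coordinates are those of GRCh38, while the sites are on hg19, whose chromosome M can be offset by a few nt. The base at each site was therefore read from the GENCODE transcripts at shifts of up to 3 nt either way. At shift 0, 7 of 25 sites that lay in a transcript fell on T. Of the 3 sites in the rRNA genes, all 3 fell on T at a shift of -2. Of the 20 sites from MT-ND1 onward that lay in a transcript at a shift of -1, 18 fell on T. No other break point and no other pair of shifts gave as many. T made up 24.9% of the plus strand and 30.98% of the minus strand over all 15358 positions in genes. With this pair of shifts, 21 of 23 sites fell on T and the other 2 fell on C. Those 2 were 12706 on the plus strand with a score of 42 and 15302 on the minus strand with a score of 10. At a site where the sequence already has C, a C read is not a change from that sequence. The hg19 sequence itself was not used here, so its base at these 2 sites was not tested. Positions below are those of the deposited list on hg19, and nt numbers within genes use the pair of shifts.

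**Figure D1:**
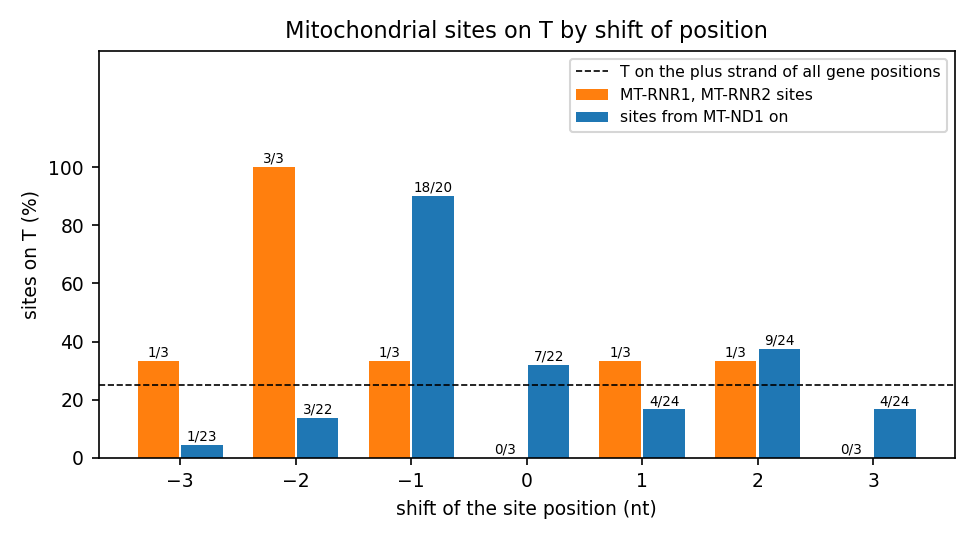
Share of mitochondrial sites whose base in the GENCODE transcripts is T (vertical axis, %) against the shift applied to the deposited position (horizontal axis, nt), with the number of sites on T over the number in a transcript above each bar. The rRNA sites reach 3 of 3 at -2 and the sites from MT-ND1 onward 18 of 20 at -1; the dashed line marks the 24.9% of T on the plus strand.

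Part of the list lay at the ends of tRNAs, and the sequences next to those sites are shown here. The sites were placed by position and the pair of shifts, not by the tRNA sequences. In each tRNA the capital marks the last base that the DNA encodes, and in the starts of MT-ND2 and MT-ND6, which follow MT-TM and MT-TE directly, the capital marks the site itself. The sequences are GENCODE 29 transcripts, 5′ to 3′, written with T for U.
MT-TM: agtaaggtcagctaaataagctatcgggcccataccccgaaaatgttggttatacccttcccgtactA
MT-TN: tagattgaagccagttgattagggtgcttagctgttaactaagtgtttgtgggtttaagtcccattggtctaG
MT-TC: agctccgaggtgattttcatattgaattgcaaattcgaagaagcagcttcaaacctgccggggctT
MT-TE: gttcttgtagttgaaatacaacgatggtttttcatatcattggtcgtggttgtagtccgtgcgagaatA
MT-TP: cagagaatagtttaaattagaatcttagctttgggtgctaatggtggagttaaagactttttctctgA
MT-ND2 start: aTtaatcccctggcccaacccgtcatctac
MT-ND6 start: aTgatgtatgctttgtttctgttgagtgtg

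Of the 31 mitochondrial sites, 6 lay 1 or 2 nt past the last encoded base of a tRNA, on the strand of that tRNA (19.4%, exact Clopper-Pearson 95% interval 7.45 to 37.5%). The limit for counting, from 0 to 3 nt past that base, was set after seeing the data. Such places make up 88 of the 32160 strand positions between the first and the last site, or 0.274%. The 2 shares were not compared by a test. The site at 4472 on the plus strand, with a score of 165, lay 2 nt past MT-TM, the tRNA for methionine, and was also nt 2 of MT-ND2. The site at 14673 on the minus strand, with a score of 199, lay 2 nt past MT-TE, the tRNA for glutamate, and was also nt 2 of MT-ND6. In both cases the base is the middle letter of the first codon of the mRNA, so a read over it can come from the tRNA with its added end or from the mRNA, and these cannot be told apart in the list. The other 4 lay between genes. The site at 5657, with a score of 6, lay 1 nt past MT-TN, the tRNA for asparagine. The site at 5760, with a score of 39, lay 2 nt past MT-TC, the tRNA for cysteine. The pair at 15956 and 15955, with scores of 13 and 7, lay 1 and 2 nt past MT-TP, the tRNA for proline.

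These positions are those where the first and second letters of an added CCA would be read. C reads from the CCA end would appear as T-to-C wherever the encoded base is T. It was T at 4472 and 14673. At 5657, 5760, 15955 and 15956 the encoded base was not read, since these lay outside the transcripts. The list holds no reads, so the part of CCA ends in the sites past tRNAs was not tested. With the pair of shifts no site lay inside a tRNA, and the other 17 tRNAs had no site at their 3′ end either. Of the 8 sites on the minus strand, 5 belonged to this set. That strand encodes 8 of the 22 tRNAs and 1 of the 13 mRNAs.

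**Figure D2:**
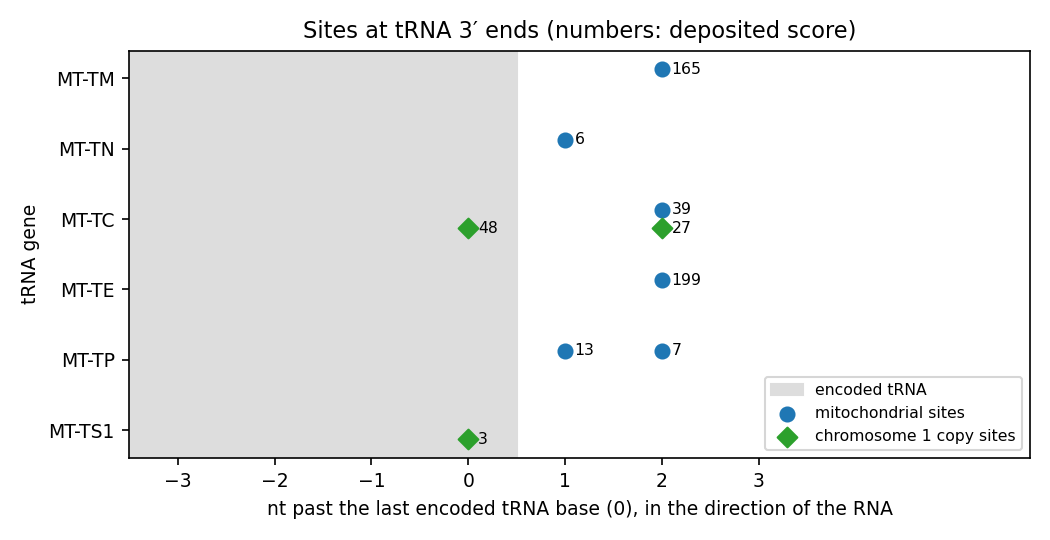
Position of sites relative to the last encoded base of a tRNA (horizontal axis, nt, 0 is the last encoded base and positive values lie past it) for 6 tRNA genes, with the deposited score beside each point. The 6 mitochondrial sites (circles) lie at 1 or 2 nt. The 3 sites of the chromosome 1 copy (diamonds) lie at 0 or 2 nt after transfer by the offset with most matches, 4 of 8 sites. That offset was chosen partly by the matches of 2 of these 3 sites.

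The score was concentrated in the rRNAs. The authors' deposited score is a whole number. The sources used here do not name its unit. It is used to rank sites within this list and, in sums, to give shares that treat it as additive. RNA levels were not part of the data used here, so their part in the scores was not tested. The 3 sites in rRNA genes held 97.1% of the summed score of chromosome M. MT-RNR2, the 16S rRNA of the large mitochondrial ribosomal subunit, had its 2 sites on neighbouring bases at 2896 and 2897, with scores of 40639 and 25634. They were nt 1224 and 1225 of its 1559 nt and ranked 24 and 32 in the whole list. MT-RNR1, the 12S rRNA of the small subunit, had 1 site at 1582 with a score of 6074. It was nt 933 of 954, the 22nd base counted from the 3′ end. The stretches around them are shown because they carry the 3 highest scores of the mitochondrial genome, with the sites in capitals. The MT-RNR1 stretch is its last 60 nt, and the MT-RNR2 stretch runs from nt 1194 to 1255.
MT-RNR1 end: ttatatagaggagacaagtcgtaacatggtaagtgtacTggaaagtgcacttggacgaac
MT-RNR2 stretch: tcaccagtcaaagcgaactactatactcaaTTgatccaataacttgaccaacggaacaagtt
The remaining 28 sites had scores from 3 to 712.

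The mRNAs held many of the sites but little of the score. On the sense strand, 17 of the 31 sites (54.8%, 36.0 to 72.7%) lay in 8 of the 13 mRNA genes, and together they held 2.76% of the summed score. Without the sites at 4472 and 14673, which also lie past tRNAs, they were 15. Per length these 15 were 1.32 sites per kb of mRNA gene, against 1.19 per kb of rRNA gene from 3 sites. A further 3 sites lay on the antisense strand of mRNA genes. The highest score in an mRNA was 712 at 9951 in MT-CO3, a subunit of cytochrome c oxidase. It was nt 744 of 784, the 41st base counted from the 3′ end, and the last 70 nt of MT-CO3 are shown with the site in capitals.
MT-CO3 end: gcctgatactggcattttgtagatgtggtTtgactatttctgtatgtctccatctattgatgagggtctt
MT-CO1, the catalytic subunit of the same complex, had 1 site with a score of 35.

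The 7 genes of complex I, the NADH dehydrogenase at the head of the chain, held 12 of those 15 sites (51.9 to 95.7%). These genes make up 55.8% of the length of the mRNA genes, a share inside that interval. MT-ND1 had 4, all on the sense strand. Its scores were 126 at 3573, 50 at 3591, 62 at 3600 and 81 at 3842, so that 3 of the 4 lay within 28 nt. MT-ND2 had 3, with scores of 165 at 4472, 36 at 4756 and 24 at 4978, the first of them the site past MT-TM. MT-ND4 had 2 sense sites, with 73 at 10954 and 272 at 11679, and 1 antisense site with 7 at 11057. MT-ND5 had 4 sense sites, with 42 at 12706, 4 at 13489, 110 at 13609 and 45 at 14136, and 1 antisense site with 7 at 13201. Its site at 12706 is 1 of the 2 that fell on C, and its site at 14136 was the 14th base counted from the 3′ end of the gene. MT-ND6, the one mRNA read from the other strand, had the site at 14673 only. Cytochrome b of complex III, MT-CYB, had a sense site with 18 at 14758, nt 11 of the gene, and an antisense site with 10 at 15302, the other site on C. The mRNA genes MT-CO2, MT-ATP8, MT-ATP6, MT-ND3 and MT-ND4L had no site. Read depth is unknown, so it is not known whether a site in these 5 genes could have been detected. Their lack of a listed site does not show a lack of binding.

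Sites in genes mostly lay on the sense strand. At shift 0, 25 sites lay in a gene and 22 of them on its strand (88.0%, 68.8 to 97.5%). With the pair of shifts these were 20 of 23 (87.0%, 66.4 to 97.2%), because the sites at 5657 and 15956 moved out of tRNA genes. The 3 antisense sites had scores of 7, 7 and 10, while 19 of the 20 sense sites had at least 18 and the other had 4. The antisense and sense scores therefore overlapped at 1 site. The remaining 4 sites outside genes and away from tRNA ends had scores from 3 to 5. They were 146, 150 and 16225 in the control region, where replication and transcription start, and 8280 between MT-CO2 and MT-TK.

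**Figure D3:**
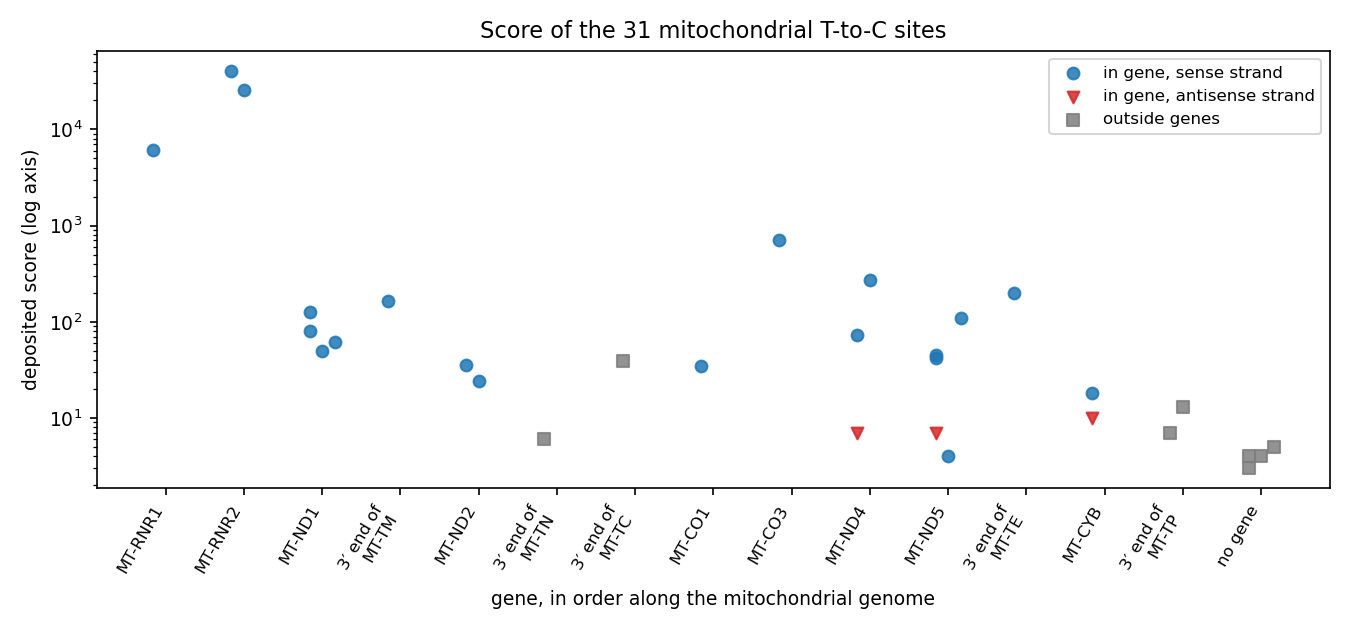
Deposited score (log axis) of each of the 31 mitochondrial sites by gene, in order along the genome, with sites at tRNA 3′ ends shown under the tRNA. The 3 rRNA sites lie at 6074 to 40639, the 3 antisense sites at 7 to 10 and the 4 sites outside genes and tRNA ends at 3 to 5.

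The letters around the sites were compared with those around every T on either strand of the mitochondrial gene positions. That background therefore includes the strand opposite to each gene. A window of 61 nt centred on the site lay inside the transcripts for 22 of the 31 sites, both strands counted. GGAC, the core of the sequence in which METTL3 and METTL14 most often methylate A, was present in 1 of these 22 windows (4.55%, 0.115 to 22.8%), that of MT-RNR1. It was present in 10.3% of 8163 windows centred on a T. GGACT, which contains GGAC, was in 0 of 22 (0 to 15.4%), against 4.77% of all windows. For both motifs the share over all windows lies inside the interval. The base before the site was C in 10 of 22 (45.5%, 24.4 to 67.8%), against 24.5% before every T, and the interval just includes that share. The base before was G in 2 of 22 (9.09%, 1.12 to 29.2%) against 20.5%. The base after was A in 3 of 22 (13.6%, 2.91 to 34.9%) against 30.1%, and G and T in 7 each (31.8%) against 21.8% and 28.0%. With 22 windows, each of these intervals includes the share around every T. The 22 windows include both sites on C, and neighbouring sites share letters. Of them 18 lay on the plus strand and 4 on the minus strand, against 3630 and 4533 of the windows around every T. The strands differ in base make-up, with T at 24.9% and 30.98%. Shares of the base before and after are not given by strand, so the part of strand in them was not tested. On the plus strand alone GGAC was in 1 of 18 windows (5.56%, 0.141 to 27.3%), against 10.9% around every T.

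There were 33 sites in the nuclear copies, of which 26 lay on the minus strand and 7 on the plus strand. No site lay close outside the windows: the nearest was 20640 nt beyond an edge, on chromosome 1, and the sites inside lay at least 667 nt from an edge. GENCODE 29 lists copies of mitochondrial genes on these chromosomes, and they were set beside the windows by name, chromosome and, for chromosome 5, their order along it, since its coordinates are on the other build. Which nuclear sites lie inside these genes was not tested. On chromosome 1 a run of 7 copies, MTND1P23, MTND2P28, MTCO1P12, MTCO2P12, MTATP8P1, MTATP6P1 and MTCO3P12, reads from the plus strand and was 97.6 to 99.1% identical to its sources. On chromosome 5 a second run, MTCYBP18, MTND6P4, MTND5P11, MTND4P12, MTND4LP30 and MTND3P25, reads mostly from the minus strand and was 89.6 to 95.8% identical. MTRNR2L8 on chromosome 11 and MTRNR2L2 on chromosome 5 are copies of MT-RNR2 on the minus strand. The MTRNR2L8 transcript was 93.1% identical to MT-RNR2 over 1303 aligned positions, and the annotated MTRNR2L2 transcript is only 87 nt long.

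The first window of chromosome 5 and the window of chromosome 11 carried nearly all of the score in the nuclear group. Together they held 18 sites, all 18 on the minus strand, which is the strand of MTRNR2L2 and MTRNR2L8. The sites spanned 968 nt on chromosome 5 and 1583 nt on chromosome 11, more than the 87 and 1303 nt of these transcripts, so not every site can lie in them. They held 99.3% of the summed score of the nuclear sites and the 5 highest nuclear scores. On chromosome 5 the higher scores lay together at one end of the window. The scores were 4 at 79946375, 21 at 79946661, 7 at 79946981, 19 at 79947132, 153 at 79947256, 1462 at 79947292, 7394 at 79947332 and 41853 at 79947342. The highest lay at the end that is first in a minus-strand RNA, and it ranked 23 in the list, next to the 24 of MT-RNR2.

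On chromosome 11 the 2 highest scores also lay at that end. The scores were 9174 at 10531249 and 8461 at 10531211, followed by 30 at 10531001, 790 at 10530907, 4 at 10530713, 4 at 10530599, 175 at 10530268, 4 at 10529883, 50 at 10529742 and 61 at 10529667. The MTRNR2L8 stretch that aligns with the 62 nt around the MT-RNR2 sites, nt 1195 to 1256 of that transcript, was identical at 56 of 62 positions. This stretch lies near the 3′ end of the 1303 nt transcript. The 2 highest scores lay instead at the end of the sites that is first in a minus-strand RNA. Whether a site of this window falls in that stretch was not tested, for want of hg19 sequence.

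The other 2 windows, beside which the runs of mRNA copies stand, had low scores. The 7 sites in the second window of chromosome 5, from 134259594 to 134263686, had scores of 3 to 23 with a median of 4. Of these, 5 lay on the minus strand, and the 2 highest, 14 and 23, were 5 nt apart at 134263681 and 134263686. The 8 sites on chromosome 1 from 565527 to 568828 had scores of 3 to 307 with a median of 13, and 5 of them lay on the plus strand.

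The chromosome 1 copy repeated some of the mitochondrial sites. Offsets between copy and mitochondrial positions were compared for the number of copy sites with a mitochondrial site of the same strand within 2 nt. The offset with most matches, 560549, matched 4 of the 8 sites, 2 of them at 0 nt. Offsets more than 10 nt from it in that orientation matched at most 2. The best in the opposite orientation, which is not that of the copy, matched 3, also with 2 at 0 nt. Another offset in that opposite orientation, more than 10 nt away, also matched 3. Of the 4 matches, 2 share 1 mitochondrial site. Of the 141 offsets that keep the annotated run of 5861 nt inside the window, this one matched most, and offsets more than 10 nt from it matched at most 1. For the first window of chromosome 5 the best offset matched 2 or 3 sites by orientation, against 1 or 2 more than 10 nt away. For the second window of chromosome 5 and the window of chromosome 11 it matched 2 in either orientation. Offsets more than 10 nt away also matched 2 there. Up to 2 matches were at 0 nt, and the sites of these 3 windows were not placed.

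At this offset the plus-strand site 565527, with a score of 3, matched 4978 in MT-ND2, with a score of 24. The minus-strand site 566309, with 27, matched 5760 past MT-TC, with 39, and the site 566311, with 48, lay 2 nt from it. The plus-strand site 568828, with 9, lay 1 nt from 8280, with 5. The higher score was therefore on chromosome M for the 2 exact matches and on chromosome 1 for the other 2. All 3 minus-strand sites of this copy fell within the limit of 0 to 3 nt at a tRNA 3′ end, but only 1 of them past it. This was 566309, 2 nt past MT-TC, while 566311 was its last encoded base. The site 567996, with a score of 3, was the last encoded base of MT-TS1, a tRNA for serine. The offset was chosen by matches that include those of 566309 and 566311 to 5760, so their place at MT-TC followed from that choice. The mitochondrial base at this offset was T for 4 of the 6 sites that lay in a transcript, C for 567092 and G for 567996, so the placement of those 2 sites is in doubt. The sequence of the copy itself was not read at these sites. The 3 sites without a mitochondrial match on the plus strand were 565605 in MT-ND2 with 17, 566473 in MT-CO1 with 307 and 567092 in MT-CO1 with 7. The sources used here do not say how reads that match both the copy and its source were assigned, so sites on either cannot be told apart from reads of the other.

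Set side by side, the scores of the groups overlapped. The median score was 39 on chromosome M (95% order-statistic interval 10 to 81, 31 sites) and 19 in the nuclear copies (4 to 50, 33 sites). The intervals overlap, and both groups ran from 3 to about the same top, 40639 and 41853. The nuclear group pools unlike windows. The median was 55.5 for 18 sites in the first chromosome 5 window and the chromosome 11 window, and 7 for the other 15. A score of at least 100 was found for 9 of 31 mitochondrial sites (exact interval of the share 14.2 to 48.0%) and 9 of 33 nuclear sites (13.3 to 45.5%), where 9.81% of all 5981 sites had such a score. Summed scores were 74506 and 70142. Of the mitochondrial sites 23 of 31 lay on the plus strand, and of the nuclear sites 7 of 33, where the annotated copies beside 3 of the 4 windows read wholly or mostly from the minus strand. Sites are not replicates and share their libraries, so no p-value is given.

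**Figure D4:**
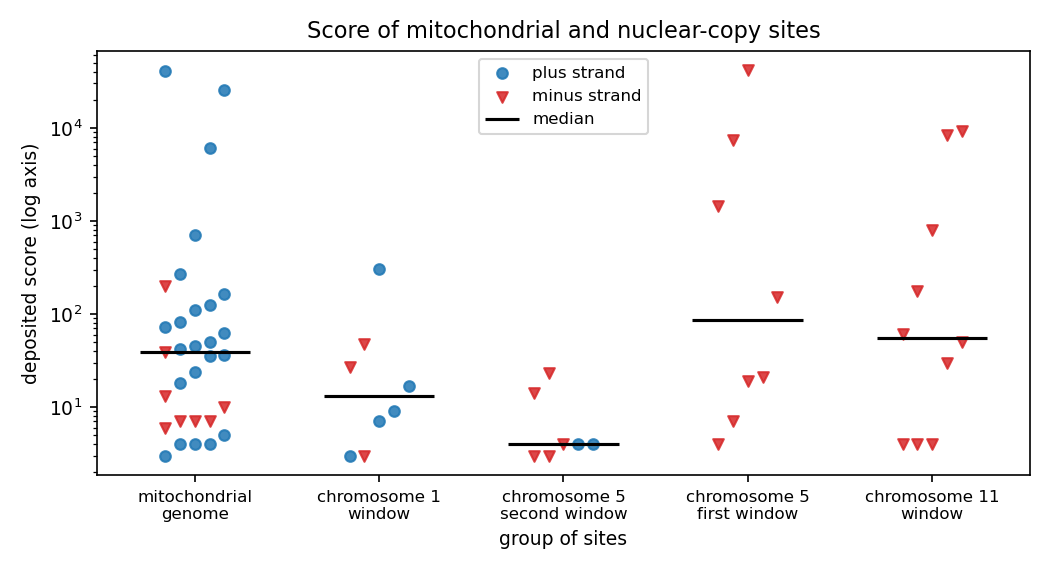
Deposited score (log axis) of each site of the mitochondrial genome and of the 4 nuclear windows, by strand, with the median of each group as a line. The first window of chromosome 5 and the window of chromosome 11 reach 41853 and 9174 with every site on the minus strand, while the other 2 windows stay at or below 307.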

How the data were processed

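The 2 PAR-CLIP libraries of HA-METTL14 in HepG2 cells share 1 deposited site list. The submitters' processing notes name Bowtie 1.1.2, cutadapt 1.13, FastQC 0.11.5 and the build hg19, and the site names carry the name of the caller rbsSeeker. The sources used here do not give its settings or say whether libraries were pooled first. The authors deposited a score of at least 3 per site, with no unit given, and depth is unknown. The middle base of each 201 nt interval was taken as the site (1-based). Gene placement, strand shares, scores and offsets were computed with Python 3.11.15, numpy 2.4.6, scipy 1.17.1 and Biopython 1.88 (local alignment). GENCODE 29 transcripts gave genes and sequence. The planned placement was at shift 0, and the pair of shifts was chosen after seeing the base check. Every mitochondrial gene with a site was named, by rule. Members and lists were chosen with earlier results of these data known. Intervals cover the counting of sites only, and no test between groups was run. Alternatives were shifts, minimum scores of 5 and 10, sites within 30 nt counted once, wider windows and other match limits.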

Additional observations from a re-analysis of the deposited data

How the results depend on the processing

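Of 39 recomputed values, 36 lay inside the reported interval or, for counts, within 1.5 times the reported number. The nuclear copy sites fell from 33 to 19 with a score of at least 10. With a score of at least 5 they fell to 22, which is at the limit of 1.5 times and was counted as within it. The chromosome 1 sites matched to chromosome M fell from 4 to 2 when only matches at 0 nt counted. The sites at tRNA 3′ ends fell from 6 to 3 with a shift of -3, at which 2 of 26 sites lay on T. The count stayed at 6 with shifts of 0, -1 and -2. It takes in 0 to 3 nt, and the distance of each site changes with the shift. At shift 0 the sites at 5657 and 15956 lay inside tRNA genes. The settings for the base at the sites, for tRNA 3′ ends and for the pair of shifts, and the score and spacing settings for matched sites, were chosen after seeing the data. No paired analysis was possible because there is only 1 group. Replicates could not be left out in turn, since each site has a single value for the 2 libraries. Depth is unknown and every count here is small, which limits each share.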
